A study of Mus musculus with 2 samples.

Results

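The miR-29 family was represented by 4 mature miRNAs, mmu-miR-29a-3p, mmu-miR-29b-3p, mmu-miR-29c-3p and mmu-miR-29c-5p (mmu- marks mouse and is left off below), which were chosen by name from the 1374 entries of a small RNA count table, 1214 of them miRNAs. The table held 3 other arms of the same hairpins, miR-29a-5p, miR-29b-1-5p and miR-29b-2-5p, and these are described beside the 4. The RNA was isolated from exosomes, small vesicles shed by cells into the culture medium. One library was made from mesenchymal stem cells (MSCs), stromal cells able to form bone, cartilage and fat, of the C57BL/6 strain, and the other, the control, from NIH 3T3 cells (NIH3T3), an immortalised mouse fibroblast line of NIH Swiss origin. Both cell types were grown for 72 hours on uncoated plastic in αMEM with 5% FBS, and the labels name no drug or transgene. The tissue the MSCs came from, their passage and the number of animals are not stated in the labels. Each group had 1 library, so there was no replicate error, no test was made, and every difference below is a difference between these libraries.

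The miR-29 miRNAs bind the 3′ untranslated regions of mRNAs through the seed, bases 2 to 8 of the 3p arm. They are best known as repressors of collagens, elastin and other matrix genes, and loss of miR-29 accompanies fibrosis of heart, lung, liver and kidney. A hairpin precursor is cut into a 5p and a 3p arm, and in this family the 3p arm is the one usually kept in the silencing complex, while the 5p arm is mostly degraded. miR-29b is made from a pair of genes, each next to another member.

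The mature sequences below are shown because they decide which counts can be told apart. They are from RefSeq (build GRCm38.p6, the same genome as the mm10 of the table), written 5′ to 3′ with the seed in capitals. All 7 arms matched an entry, and each RefSeq position was among the positions that the table gives for that arm.
miR-29a-3p: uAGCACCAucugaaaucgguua
miR-29b-3p: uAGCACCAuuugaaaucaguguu
miR-29c-3p: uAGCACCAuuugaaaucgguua
miR-29c-5p: uGACCGAUuucuccugguguuc
miR-29a-5p: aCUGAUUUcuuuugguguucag
miR-29b-1-5p: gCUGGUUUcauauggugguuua
miR-29b-2-5p: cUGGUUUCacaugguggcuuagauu

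The 3p arms shared 1 seed, and among the 1056 miRNA names of the table with a RefSeq sequence no other name had it. None of the 4 5p arms shared its exact seed with another name. The seeds of miR-29b-1-5p and miR-29b-2-5p nonetheless overlap with a shift of 1 base, both holding UGGUUU. Counting positions from the 5′ end, miR-29a-3p and miR-29c-3p differed at 1 of 22 bases (C10U, miR-29a-3p first). miR-29c-3p and miR-29b-3p differed at 3 of those bases (G18A, U21G, A22U, miR-29c-3p first), and miR-29b-3p was 1 base longer. It ended in AGUGUU, a stretch that in human cells has been linked to import of miR-29b into the nucleus; 0.189% of the table's names with a sequence ended that way, and 0.568% held these letters at any place on the mature strand. With a single base between them, the split of reads between miR-29a-3p and miR-29c-3p depends on how mismatches were counted, which no label or header states, so that split is uncertain.

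The genes lay in a pair of clusters. On chromosome 6, minus strand, miR-29a-3p was at chr6:31062673-31062694 and its 5p arm at chr6:31062711-31062732. The miR-29b-1 hairpin began 275 bases away, with its 5p arm at chr6:31063067-31063088. In GENCODE M21 the Mir29a hairpin overlapped no other gene, and the Mir29b-1 hairpin overlapped the end of the long non-coding RNA Gm27019. On chromosome 1, plus strand, miR-29b-2-5p was at chr1:195037050-195037074, and 426 bases separated its hairpin from that of miR-29c. miR-29c-5p was at chr1:195037562-195037583 and miR-29c-3p at chr1:195037600-195037621. Both chromosome 1 hairpins lay in an exon of the long non-coding RNA A330023F24Rik and, on the opposite strand, in an exon of Cd46, a complement regulator. miR-29b-3p has the same sequence at both loci (chr6:31063025-31063047 and chr1:195037091-195037113), so its count is a sum over both genes.

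The miRNA total was 1028186 in the MSC and 431007 in the NIH3T3 library. Levels are given in CPM, the count divided by this total and multiplied by 1000000. A small RNA read covers a whole mature miRNA, so levels were not divided by length. Of the fixed mesenchymal markers, 7 of 7 were above 100 CPM, and together they took 24.9% of miRNA counts in MSC and 18.6% in NIH3T3 exosomes. Most of this was the shared entry of miR-199a-3p and miR-199b-3p, at 167562 CPM in MSC and 154264 CPM in NIH3T3 exosomes (log2 ratio -0.12). By a 2-fold rule 2 markers were higher in MSC exosomes, miR-143-3p (1.90) and miR-145a-5p (1.36), and 5 were neither higher nor lower. Of the blood markers 5 of 6 were in the table, with 0.0275% in MSC and 0.0462% in NIH3T3 exosomes. They went both ways, with log2 ratios of -1.71 for miR-142a-3p, -1.40 for miR-451a, -0.09 for miR-142a-5p, 0.80 for miR-223-3p and 0.79 for miR-150-5p. Only miR-142a-3p among them reached 100 CPM in a library. Of the epithelial markers 2 of 6 were in the table, with 0.00496% in MSC and 0.00464% in NIH3T3 exosomes. Endothelial markers, 2 of 2 in the table, took 0.0370% in MSC and 0.0768% in NIH3T3 exosomes. Of the neural markers 2 of 3 were in it, without miR-124-3p, and took 0.130% in MSC and 0.111% in NIH3T3 exosomes. Of these, miR-128-3p was higher in MSC exosomes (log2 ratio 1.58) and miR-9-5p lower (-5.36). Of the muscle markers 2 of 3 were in the table, without miR-1a-3p. They took 0.725% in MSC and 0.0501% in NIH3T3 exosomes, nearly all of it miR-206-3p, which was 13.3-fold higher in MSC exosomes. The other, miR-133a-3p, was below 100 CPM in both libraries, at 70.0 CPM in MSC and 41.8 CPM in NIH3T3 exosomes. No marker in the table had a count of 0, and the part of other cell types in the miR-29 values was not tested. Bovine serum was present in both cultures, and miR-29 3p arms are widely conserved among mammals. The hepatocyte and serum miRNA miR-122-5p had 9759 counts in the MSC library, against 3486 in the NIH3T3 library. This is 9491 CPM in MSC and 8088 CPM in NIH3T3 exosomes, with a log2 ratio of -0.0045 on the scale of the authors' deposited values. The part of serum in the miR-29 counts was not tested. From such data, fewer vesicles of a kind and less of a miRNA per vesicle cannot be told apart.

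miR-29a-3p was the main member. It had 25871 counts in the MSC library, against 6260 in the NIH3T3 library, which is 2.52% of MSC miRNA counts (95% Wilson interval 2.49 to 2.55) and 1.45% of NIH3T3 miRNA counts (1.42 to 1.49). By count it was miRNA number 9 in MSC and number 13 in NIH3T3 exosomes. The authors' deposited log2 value was 14.05 for MSC and 13.49 for NIH3T3 exosomes. On that scale miR-29a-3p was 1.47-fold higher in MSC exosomes (log2 ratio 0.56, exact 95% counting interval 0.52 to 0.60). These intervals, like all others here, cover counting error only.

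miR-29b-3p, the arm made from both clusters, had 8238 counts in the MSC library, against 2226 in the NIH3T3 library, which is 8012 CPM and rank 24 in MSC and 5165 CPM and rank 31 in NIH3T3 exosomes. The log2 ratio was 0.40 (0.33 to 0.47). miR-29c-3p was scarcer, with 818 counts in the MSC library against 218 in the NIH3T3 library, which is 796 CPM and rank 101 in MSC and 506 CPM and rank 104 in NIH3T3 exosomes. The deposited log2 values were 9.07 in MSC and 8.65 in NIH3T3 exosomes, and the log2 ratio was 0.42 (0.20 to 0.64). The order of the 3p arms was thus the same in both libraries, and their counting intervals in CPM did not overlap within a library. On the deposited scale each 3p arm was somewhat higher in MSC exosomes by its counting interval, and each was within 2-fold. After centring on the median ratio, the interval of miR-29c-3p included 0 (-0.075 to 0.36).

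Summed over the seed they share, the 3p arms took 3.40% of all MSC miRNA counts (3.36 to 3.43), against 2.02% of those of NIH3T3 exosomes (1.98 to 2.06). The log2 ratio of the sum was 0.51 on the deposited scale (0.48 to 0.55). It depended on the scaling more than on counting error: it was 0.75 by miRNA total, 0.74 by the total of all entries, 0.35 when each library's 10 most abundant miRNAs were left out of the total and 0.24 after centring on the median ratio of all miRNAs. The sum stayed within 2-fold and above 0 under all 5 scalings.

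Across the table, a miRNA was compared if it reached 100 CPM in at least 1 library, and called at a difference of 2-fold or more. Of 318 such miRNAs, 108 were higher in MSC exosomes (34.0%) and 83 lower (26.1%), so that 60.1% were called either way. All 4 chosen members passed the minimum, miR-29c-5p through its MSC level alone. The 3p arms were called in 0 of 3 cases. The median log2 ratio of the 318 was 0.28, and miR-29a-3p lay 0.28 above it, miR-29b-3p 0.12 and miR-29c-3p 0.14. Among all miRNAs at 1000 CPM or more in at least 1 library, the level class of miR-29a-3p and miR-29b-3p, 56.2% of 105 were called.

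**Figure D1:**
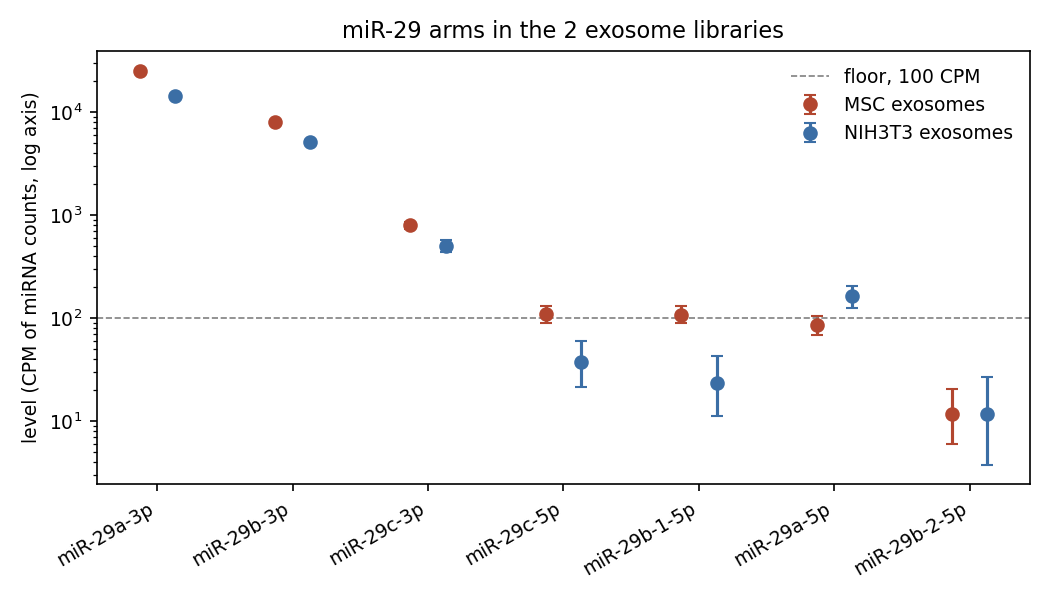
Level of each miR-29 arm in MSC (red) and NIH3T3 (blue) exosomes, in CPM of miRNA counts on a log axis, with exact 95% Poisson intervals for counting error and 1 library per group. The 3p arms run from 25162 down to 506 CPM with the MSC point above the NIH3T3 point each time, while the 5p arms lie around or below the 100 CPM line and go both ways.

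The 5p arms were far scarcer than the 3p arms and went both ways. miR-29c-5p, the 1 chosen member from this side of the hairpin, had 113 counts in the MSC library, against 16 in the NIH3T3 library, which is 110 CPM in MSC and 37.1 CPM in NIH3T3 exosomes. The deposited log2 values were 6.21 in MSC and 4.88 in NIH3T3 exosomes, and miR-29c-5p was 2.48-fold higher in MSC exosomes (log2 ratio 1.31), with a counting interval of 0.57 to 2.19 that began below 2-fold. Because it was compared only through its higher level in MSC exosomes, this call carries a selection and is given as a value.

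miR-29b-1-5p, from the chromosome 6 cluster, had 111 counts in the MSC library, against 10 in the NIH3T3 library. On the deposited scale it was 3.84-fold higher in MSC exosomes (log2 ratio 1.94, 1.05 to 3.08), an interval wholly beyond 2-fold, which 27.4% of the 318 miRNAs had in that direction. The interval began below 2-fold when each library's 10 most abundant miRNAs were left out of the total (0.88 to 2.91). It also did so after centring on the median ratio (0.77 to 2.81). miR-29b-1-5p too passed the minimum through its MSC level alone. miR-29a-5p, from the neighbouring hairpin, went the other way, with 88 counts in the MSC library against 70 in the NIH3T3 library, which is 85.6 CPM in MSC and 162 CPM in NIH3T3 exosomes. It was 2.22-fold lower in MSC exosomes (log2 ratio -1.15, -1.63 to -0.69) and passed through its NIH3T3 level alone. Scaled by the miRNA total it was at -0.92 and by the total of all entries at -0.93, within 2-fold. miR-29b-2-5p, from chromosome 1, had 12 counts in the MSC library, against 5 in the NIH3T3 library, and at this depth no difference was detectable (-0.21, -1.84 to 1.63).

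**Figure D2:**
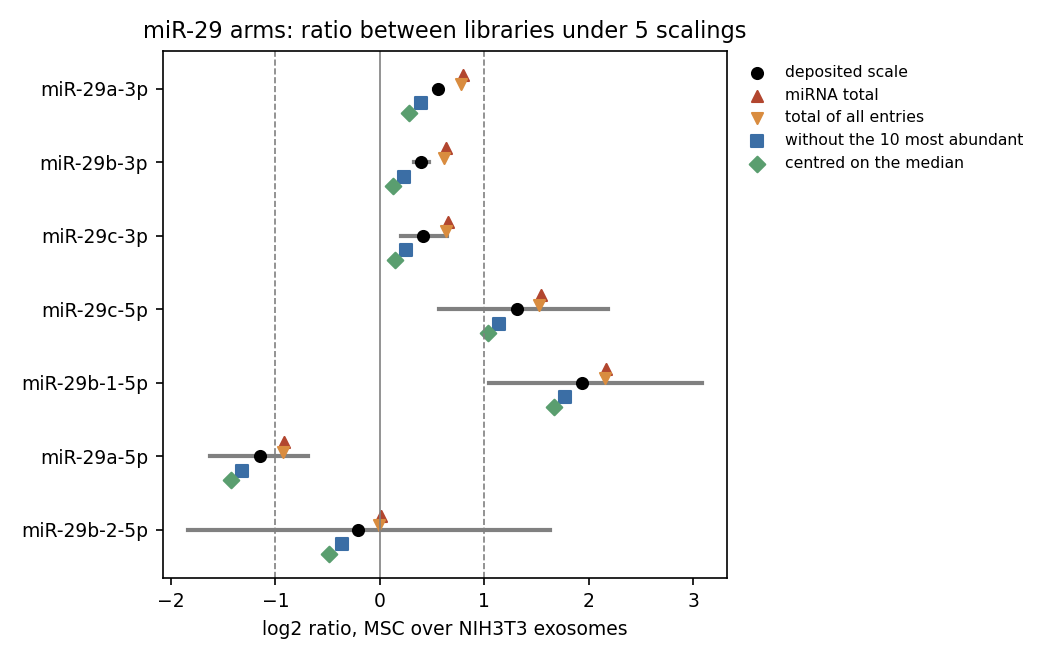
Log2 ratio of MSC over NIH3T3 exosomes for each miR-29 arm, with grey bars for the exact 95% counting interval on the deposited scale and symbols for 5 scalings of the libraries, dashed lines marking 2-fold. The 3p arms lie between 0.12 and 0.79 under every scaling, miR-29c-5p and miR-29b-1-5p stay at 1.03 or more, and miR-29a-5p crosses the 2-fold line at -1.

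Ratios within a library do not depend on how libraries are scaled. Among 3p counts, miR-29a-3p made up 74.1% in MSC exosomes (73.6 to 74.5), against 71.9% in NIH3T3 exosomes (71.0 to 72.9), and miR-29b-3p 23.6% in MSC (23.1 to 24.0) and 25.6% in NIH3T3 exosomes (24.7 to 26.5). miR-29c-3p made up 2.34% in MSC (2.19 to 2.51) and 2.50% in NIH3T3 exosomes (2.20 to 2.85), with overlapping intervals. For each miR-29b-3p count there were 3.14 counts of miR-29a-3p in MSC exosomes (3.06 to 3.22), against 2.81 in NIH3T3 exosomes (2.68 to 2.95), so that this ratio was 1.12 times that of NIH3T3 exosomes (1.06 to 1.18). The interval of this ratio lay above 1, but it is too narrow if the counts are reads. There was no replicate spread to set the difference against. The ratio of miR-29b-3p to miR-29c-3p was 10.1 in MSC (9.37 to 10.8) and 10.2 in NIH3T3 exosomes (8.88 to 11.8). The 3p make-up was therefore close to equal in both libraries, with miR-29a-3p slightly more dominant in MSC exosomes.

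The 5p make-up differed more. Of 324 5p counts in MSC exosomes, miR-29c-5p had 34.9% (29.9 to 40.2), miR-29b-1-5p 34.3% (29.3 to 39.6) and miR-29a-5p 27.2% (22.6 to 32.3). Of 101 in NIH3T3 exosomes, miR-29c-5p had 15.8% (9.99 to 24.2), miR-29b-1-5p 9.90% (5.47 to 17.3) and miR-29a-5p 69.3% (59.7 to 77.5). For the neighbouring chromosome 6 hairpins, there were 1.26 miR-29b-1-5p counts per miR-29a-5p count in MSC exosomes (0.945 to 1.69), against 0.143 in NIH3T3 exosomes (0.0656 to 0.279). The ratio was thus 8.83-fold higher in MSC exosomes (4.18 to 20.2), where each arm had passed the minimum only through the library in which it was higher. For the neighbouring chromosome 1 hairpins, miR-29c-5p over miR-29b-2-5p was 9.42 in MSC (5.18 to 18.8) and 3.20 in NIH3T3 exosomes (1.12 to 11.2). Their ratio, 2.94, had an interval that included 1 (0.710 to 10.5), so no difference was detectable there.

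**Figure D3:**
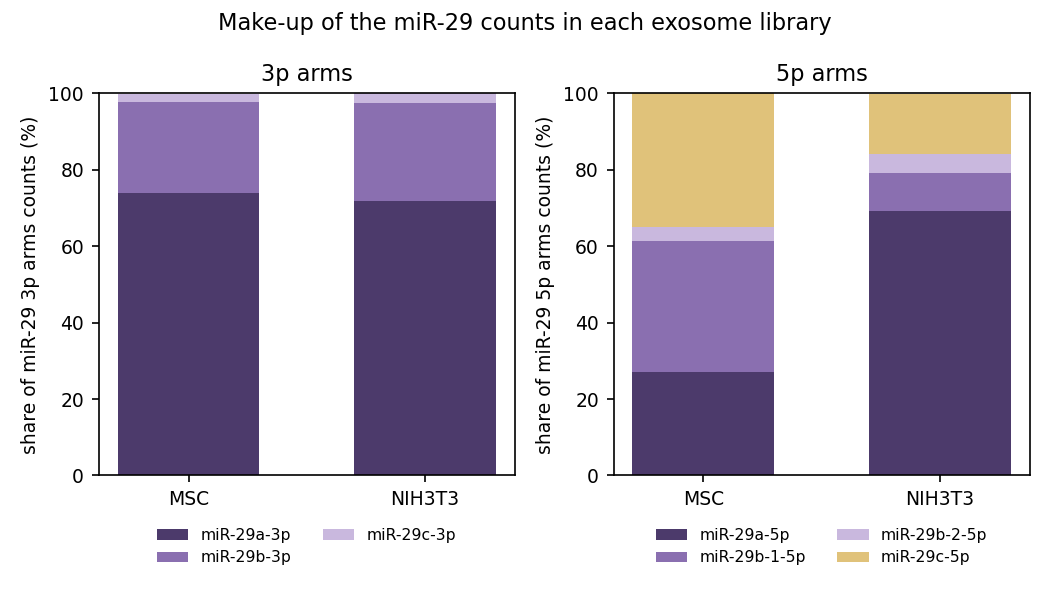
Share of each arm, in percent, among miR-29 3p counts (left panel) and among miR-29 5p counts (right panel), in MSC and NIH3T3 exosomes. The 3p bars are nearly alike, with miR-29a-3p at 74.1% in MSC and 71.9% in NIH3T3 exosomes, while miR-29a-5p takes 27.2% of the 5p bar of MSC exosomes and 69.3% of that of NIH3T3 exosomes.

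The hairpins also differed in how much of the 5p arm accompanied the 3p arm. miR-29a-5p amounted to 0.340% of miR-29a-3p in MSC exosomes (0.273 to 0.419), against 1.12% in NIH3T3 exosomes (0.871 to 1.41). miR-29c-5p amounted to 13.8% of miR-29c-3p in MSC exosomes (11.2 to 16.8), against 7.34% in NIH3T3 exosomes (4.12 to 12.2). The log2 difference of these arm ratios, MSC minus NIH3T3, was -1.72 for the miR-29a hairpin (-2.19 to -1.24) and 0.91 for the miR-29c hairpin (0.11 to 1.80), on opposite sides of 0. The values of the miR-29c hairpin also rest on the uncertain split of reads between miR-29a-3p and miR-29c-3p, which the counting intervals do not cover. The miR-29b arms could not be paired, since the 3p arm comes from both genes.

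For comparison, 47 hairpins of the table had a single position and both arms above the minimum in at least 1 library. Both miR-29 hairpins were among them only because the 5p arm passed in the library where it is higher, NIH3T3 for miR-29a and MSC for miR-29c, so their place among the 47 partly follows from how these were chosen and is a description. After adding 0.5 counts to each arm, 40.4% of them had arm ratios that differed 2-fold or more between the libraries, with 9 toward the 5p arm in MSC exosomes and 10 away from it. On this measure the difference was -1.72 for the miR-29a hairpin and 0.88 for the miR-29c hairpin, and the median size over the 47 was 0.78.

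**Figure D4:**
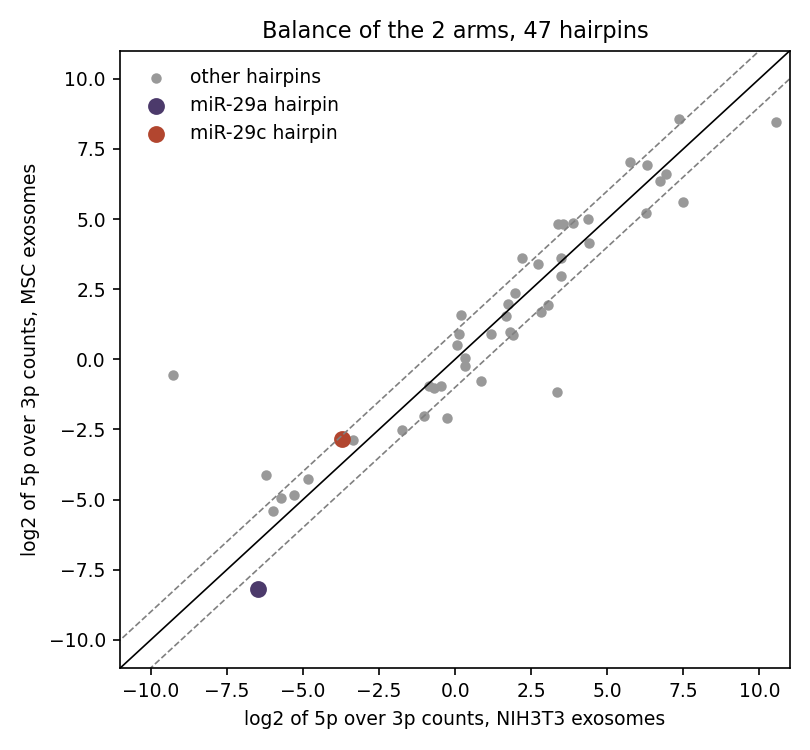
Log2 of 5p over 3p counts in MSC exosomes (vertical axis) against NIH3T3 exosomes (horizontal axis) for 47 hairpins, 0.5 counts added to each arm, with the line of equality and dashed lines at 2-fold. The miR-29a hairpin lies below the lower dashed line at -8.19 in MSC and -6.47 in NIH3T3 exosomes, the miR-29c hairpin inside the lines at -2.85 in MSC and -3.73 in NIH3T3 exosomes; the far left point is the miR-500 hairpin, named after its value was seen, whose 5p arm had 0 counts in NIH3T3 exosomes.

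The miRNAs closest to each 3p arm in level were found by the distance between log2(CPM + 1) values over the 2 libraries. For miR-29a-3p they were miR-16-5p, a cell cycle regulator (distance 0.53), miR-186-5p (0.71) and the hypoxia-induced miR-210-3p (0.75). For miR-29b-3p they were miR-23a-3p (0.05), miR-99b-5p (0.29) and miR-25-3p (0.32), and for miR-29c-3p miR-328-3p (0.13), miR-214-3p (0.16) and miR-151-3p (0.18). miR-23a-3p, with 8170 counts in the MSC library against 2300 in the NIH3T3 library, was thus almost at the level of miR-29b-3p in each library. Over 2 libraries such closeness describes level only.

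A list of 42 other miRNAs linked to fibrosis gives the setting of the family, 38 of which were in the table and 31 over the minimum, 2 of these through MSC and 1 through NIH3T3 exosomes alone. Of 13 linked to more matrix or myofibroblast activity, 6 were higher in MSC exosomes, 3 lower and 4 neither, with a median log2 ratio of 0.93; over all 318 miRNAs 34.0% were higher and 26.1% lower. Of 18 linked to less, 5 were higher, 1 lower and 12 neither, against the same 34.0% and 26.1%, with a median of 0.32, next to 0.28 for all miRNAs. The most abundant of those linked to more were miR-199a-3p (log2 ratio -0.12, an entry whose count is shared with miR-199b-3p), miR-125b-5p (1.75), and the smooth muscle pair miR-143-3p (1.90) and miR-145a-5p (1.36). Of those linked to less they were miR-122-5p (-0.00), the metabolic miR-378a-3p (-0.91), miR-148a-3p (6.37), a repressor of Dnmt1, and miR-24-3p (0.27). Over both kinds 11 of 31 were higher, near the share over all miRNAs, and 4 lower. After centring on the median ratio 10 were higher and 8 lower, where 30.5% of all miRNAs were higher and 31.1% lower. Scaled to each library's counts less its 10 most abundant miRNAs, 7 of the list were lower, where 28.6% of all miRNAs were. The miR-29 3p arms, which are not on the list, had ratios of 0.40 to 0.56, within 2-fold like those 12. Assignment to either side is textbook background and can differ between organs.

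**Figure D5:**
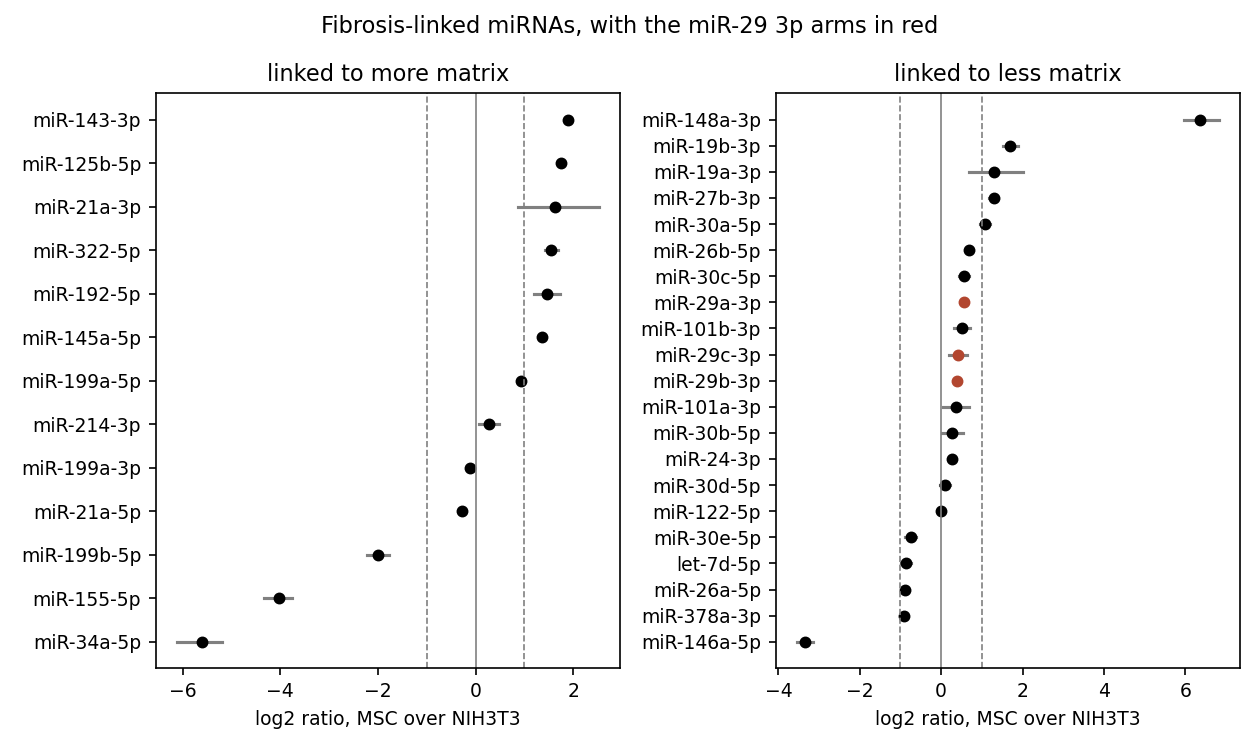
Log2 ratio of MSC over NIH3T3 exosomes, with exact 95% counting intervals, for fibrosis-linked miRNAs over 100 CPM, those linked to more matrix on the left and those linked to less, with the miR-29 3p arms in red, on the right; dashed lines mark 2-fold. The miR-29 arms sit in the middle of the right panel at 0.40 to 0.56, inside the 2-fold lines and well below miR-148a-3p at 6.37.

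What the 3p seed would pair with in collagen mRNAs was read from the mouse transcripts of GENCODE M21. The letters searched, on the transcript strand, were TGGTGCT, the reverse complement of the seed, and TGGTGCTA, the same with an A opposite base 1, which contains the shorter one. The following sites are shown because they are in the mRNAs of fibrillar and basement membrane collagens and of elastin, with the match in capitals.
Col1a1, chr11:94952516-94952545, plus strand: gggtggggtgggaaggaatttcTGGTGCTA
Col3a1, chr1:45348960-45348989, plus strand: ttccaacttcaaaatgtctcaaTGGTGCTA
Col4a1, chr8:11199761-11199790, minus strand: cgcctctgccaccgtcacaacaTGGTGCTA
Col5a2, chr1:45374965-45374994, minus strand: attataacttttcttttaatgaTGGTGCTA
Eln, chr5:134703736-134703765, minus strand: tgactcgcgacctcatcaacgtTGGTGCTA

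Of 10 collagen genes looked at, 9 held the shorter match in the 3′ untranslated region and 8 the longer one. Over all 20961 protein-coding genes with such a region of 8 bases or more, the shares were 13.1% and 2.86%, and among regions of 1000 to 2000 bases 13.1% and 2.40%. Among regions of 500 to 1000 bases, where the collagen median of 965 bases lay, they were 7.71% and 1.57%. Among regions of 2000 to 4000 bases, the range of Col5a1, Lox and Lamc1, they were 25.4% and 5.74%. Col5a1, a fibrillar collagen, held 4 matches, Col5a3 3 and Col4a2 2, while the window of Col1a2 held none. The collagens were chosen as known miR-29 targets, so their share describes the list and does not test it. Of 7 other matrix genes 5 held the shorter match. Eln (elastin) held 3 matches, Lox (lysyl oxidase, which cross-links collagen) 3, Fbn1 (fibrillin) 2, and Lamc1 (a laminin chain) and Mmp2 (a matrix protease) 1 each, while Sparc (a collagen-binding protein) and Serpinh1 (a collagen chaperone) held none. None of these mRNAs was measured in the deposited data.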

How the data were processed

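Per the labels' protocols, exosomal RNA was taken from culture supernatant with an exoRNeasy kit and made into QIAseq miRNA libraries. The protocols also mention a microarray, but the raw columns held whole numbers and were taken as sequencing counts. Per the file headers, each library had a column of raw counts and a column of normalized values. A deposited normalized value was found to be log2(factor × raw count), with a factor of 0.655 in the MSC and 1.84 in the NIH3T3 library (largest deviation 1.28e-06), or 0 where the product was under 1. Whether reads or molecular identifiers were counted is not stated, nor are the aligner and normalization method. Positions are in mm10, per the submitters' processing notes. Every entry had 10 or more counts in at least 1 library.

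Log2 ratios are MSC over NIH3T3 of the deposited, scaled counts, to which 0.734, equal to 1 CPM of their mean miRNA total, was added first. The summed 3p arms had nothing added. Exact intervals are conditional Clopper-Pearson (95%), without the constant, and shares have Wilson intervals. Ratios of ratios have exact conditional odds-ratio intervals. If the counts are reads, PCR copies are not independent and the intervals are too narrow. The minimum of 100 CPM was 103 counts for MSC and 43.1 for NIH3T3 exosomes. The 3′ untranslated region of a gene was that of its basic protein-coding transcript with the longest one. Alternatives were 4 other scalings, other added constants, a 1.5-fold rule and other minimums.

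Genes named were all miR-29 arms, the 4 most abundant of each side of the fibrosis list, the 3 nearest in level to each 3p arm, and a list of target genes. Members and lists were chosen with earlier results of these data known. Interval and calling code was tested on simulated counts. Python 3.11.15 with SciPy 1.17.1 was used.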

Additional observations from a re-analysis of the deposited data

How the results depend on the processing

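No paired analysis was possible because each group had 1 library, and for the same reason none could be left out. Scaling moved every ratio by nearly the same step. By miRNA total the log2 ratios were 0.79 for miR-29a-3p, 0.63 for miR-29b-3p, 0.65 for miR-29c-3p and 0.75 for the summed 3p arms; by the total of all entries 0.78, 0.62 and, for the sum, 0.74; with each library's 10 most abundant miRNAs left out of the total 0.39, 0.23 and, for the sum, 0.35; and centred on the median ratio 0.28, 0.12, 0.14 and 0.24. None of these was 2-fold. Of the 6 arms over the main minimum, 2 were higher, 1 lower and 3 neither on the deposited scale. Each called arm had passed the minimum only through the library in which it was higher, so these counts carry a selection. Of all 318 miRNAs 108 were higher, 83 lower and 127 neither. By miRNA total 0 of the 6 arms were lower, against 76 of the 318, and by all entries 0 against 77. Under both, miR-29a-5p came within 2-fold and was no longer called. A minimum of 1000 CPM removes the 5p arms and miR-29c-3p. Of the 2 arms left 0 were higher or lower, where 56.2% of 105 miRNAs were called. Counting the 5p arms in the total put miR-29a-3p at 73.4% of MSC miR-29 counts. The median ratio of all miRNAs was 0.51 by miRNA total, 0.50 by all entries, 0.11 without the most abundant and 0 centred, and that of the fibrosis list 0.59, 0.58, 0.19 and 0.083. On that list, 8 were lower when centred and 7 without the most abundant, where 31.1% and 28.6% of all miRNAs were lower. With a 1.5-fold rule 13 of the 31 on the list were higher, 8 lower and 10 neither. By the same rule 136 of all 318 miRNAs were higher, 108 lower and 74 neither. At a minimum of 10 CPM, 282 of all miRNAs were higher, 309 lower and 590 neither (median -0.070); at 1000 CPM 34, 25 and 46 (median 0.12, fibrosis list 0.51); and with no minimum 289, 309 and 616 (median -0.041). The 5p arms rest on 5 to 113 counts a library.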

Other observations

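miR-29 is also known for repressing enzymes that write and remove DNA methylation and the survival factor Mcl1. In the same search of 3′ untranslated regions, the DNA demethylases held many matches to the shorter letters, with 8 in Tet3, 7 in Tet1 and 5 in Tet2, and the methyltransferase genes Dnmt3a and Dnmt3b held 5 and 1. Per 1000 bases this was 1.41 in Tet3, 0.879 in Tet1, 1.64 in Tet2, 0.747 in Dnmt3a and 0.751 in Dnmt3b, next to 0.106 over all genes. Mcl1 held 1 match in 2353 bases, or 0.425 per 1000 bases, where 25.4% of all genes with regions of 2000 to 4000 bases held a match. The genes named here were listed as known or candidate targets, so the matches are a description.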
